A study of Mus musculus with 24 samples.

Results

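The visual cycle retinoid genes are 9 genes whose proteins take up, store, isomerise, oxidise and carry vitamin A in the retinal pigment epithelium (RPE): Stra6, Ttr, Lrat, Rpe65, Rdh5, Rdh10, Rdh11, Rlbp1 and Rgr. They were chosen by name as these 9 rows of a table of 54232 Ensembl gene identifiers, and all 9 were among the 20275 genes with enough counts to be tested. RNA came from RPE cut out of snap-frozen eyes by laser capture microdissection and was sequenced as mRNA libraries. The mice were males aged 6 weeks on a C57BL/6/J x 129 SvEvBrd background. The altered strain carried the genotype Per1-/-Per2Brdm1, with changes in 2 genes of the circadian clock, and its libraries are called KO here. The other mice were wild type (WT). Eyes were taken at circadian times CT19, CT22, CT1 and CT10, which span the hours around the daily peak of outer segment uptake. Each of the 8 groups held 3 libraries, 24 in all. Of these, 5 carried 2 joined numbers in their labels and are read here as pools of 2 eyes, 4 of them KO and 1 WT. The labels do not say that each library came from a separate animal, and each p-value below therefore speaks of differences among libraries, part of which may be technical. The comparisons ask whether the daily course of RPE gene expression depends on Per1 and Per2.

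When a photon strikes a visual pigment, the bound 11-cis-retinal becomes all-trans-retinal, and photoreceptors can respond again only after the 11-cis form is remade. Most of this work is done in the RPE, where vitamin A from the blood and from photoreceptors is stored as retinyl esters, turned into 11-cis-retinol, oxidised to 11-cis-retinal and handed back. The RPE also engulfs shed outer segment tips once a day under control of the clock, so it meets a daily load of membrane and retinoid.

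Most RPE markers were high in these libraries, with 2 exceptions, and rod RNA stood beside them. Total counts per library ran from 16245067 to 32066263. Of 20 RPE markers outside the 9 genes, all passed the filter on low counts. The melanin enzyme gene Dct averaged 2447 CPM (counts scaled to library size by TMM) and the RPE transporter gene Slc16a8 averaged 1376 CPM, while Best1 and Cldn19 were near 0 at 0.841 and 0.657 CPM. All 19 rod markers also passed. Their summed level ran from 19330.2 to 104805 CPM, and no rod marker was at 0 in any library. Per1 and Per2, the genes altered in KO mice, were read at higher levels in libraries labelled KO, by log2 1.23 and 1.79 on average over times (SE 0.16 each; edgeR quasi-likelihood adjusted p 9.8e-05 and 5.0e-07), though at CT10 Per1 averaged 95.8 ± 20.5 CPM in KO and 130.6 ± 49.1 CPM in WT. The labels do not say which parts of the genes were altered, and these counts cannot show it. The direction of Per1 and Per2 therefore does not check the genotype, and every direction below rests on the labels as given.

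The visual cycle genes were among the most abundant transcripts of the captured tissue. Together they took 3.46% to 6.37% of all counts in a library. Ttr was the gene with the highest level per kilobase of exon among 20254 genes with a known length, at 18017 CPM per kb. Rgr stood at rank 10 with 3038 CPM per kb and Rpe65 at rank 12 with 2424 CPM per kb. Rlbp1 and Rdh5 followed at ranks 28 and 33, with 957 and 893 CPM per kb. Rdh10 and Stra6 lay at ranks 77 and 104 and Lrat behind them, between 239 and 377 CPM per kb. Rdh11 was set apart from the other 8 at rank 989 with 40.2 CPM per kb.

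None of the 9 genes passed the test between genotypes, over time or for a genotype by time interaction. Each test was edgeR's quasi-likelihood F test, its p was adjusted by Benjamini and Hochberg's method over all 20275 genes, and a gene passed at an adjusted p under 0.05. In the average over the 4 times 0 of 9 passed, beside 0.375% of all genes tested. At single times 0 of 9 passed at CT19, CT22, CT1 and CT10, where the shares of all genes were 0.0691%, 0.227%, 0.533% and 0.0345%. Over the 4 times within WT 0 of 9 passed, beside 0.947% of all genes, and within KO 0 of 9 passed, as did 0 of 20275 genes. In the interaction test, which asks whether the KO minus WT difference varies with time, 0 of 9 passed, beside 4.62% of all genes. At an unadjusted p under 0.05 there was 1 of the 9 in the genotype difference at CT1 (Rdh11). There were 2 over time within WT (Rdh11 and Rpe65) and 1 in the interaction (Rdh11). The share of all genes under that unadjusted threshold was not counted, here or for the lists below, so these counts have no background. DESeq2 called 1 of the 9, Rdh11, over time within WT and called none between genotypes, over time within KO or in the interaction. The share of all genes that DESeq2 called is not given here. Over all alternatives, DESeq2 among them, 15 to 2159 genes passed over time within WT, against 192 in the main fit.

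**Figure D1:**
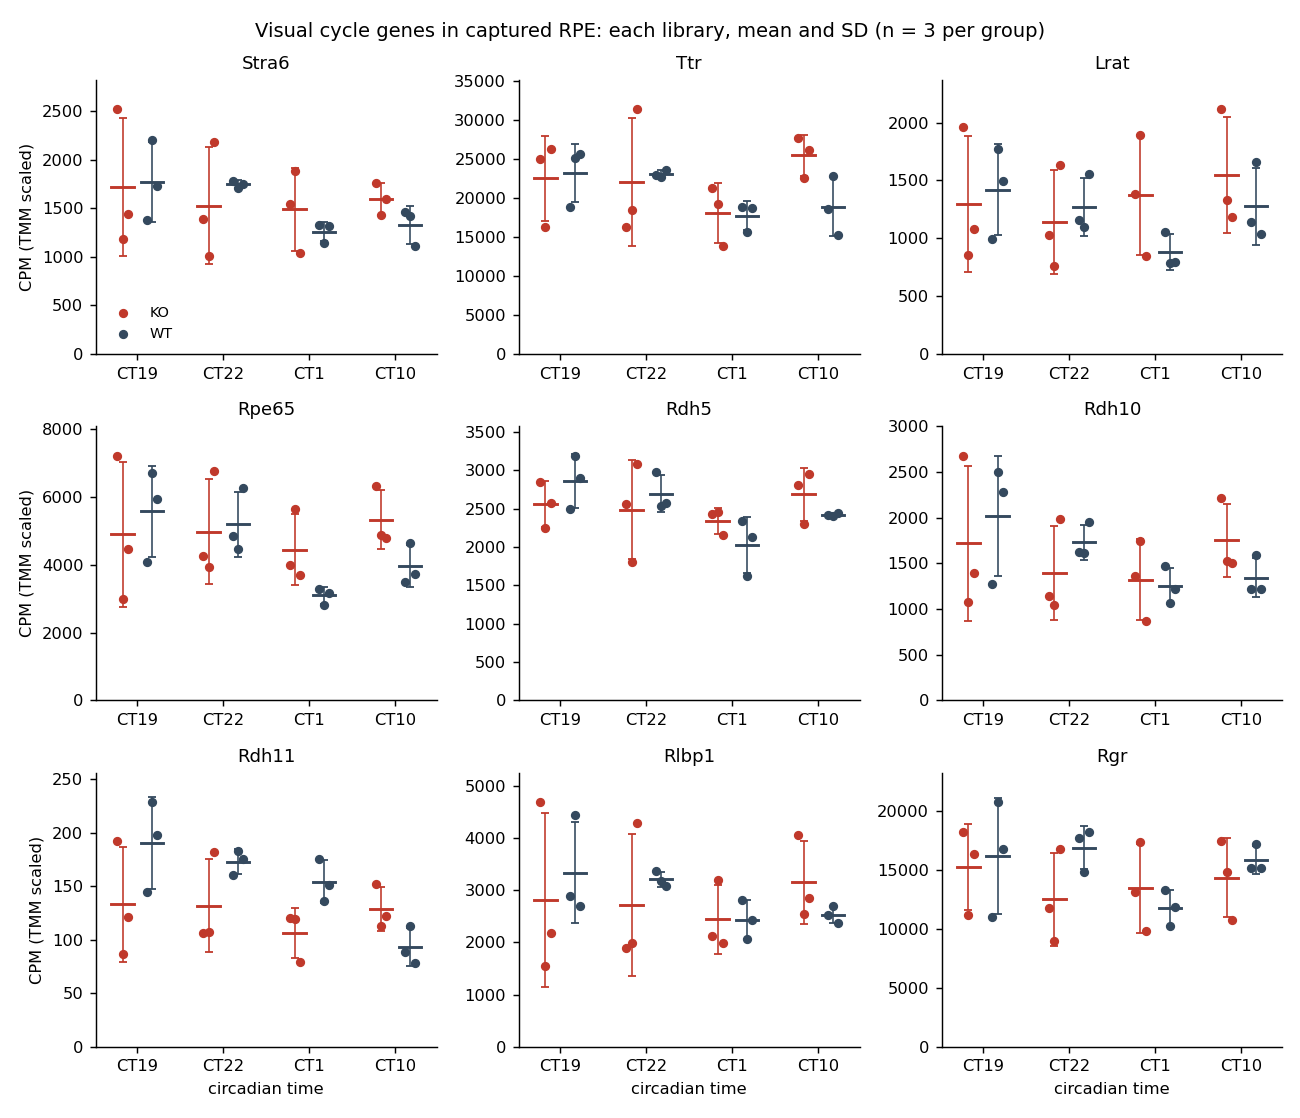
Level of each of the 9 visual cycle genes (y axis, TMM-scaled CPM, from 0) at 4 circadian times (x axis), KO in red left of WT in dark blue. Points are libraries, thick bars the mean and whiskers the SD of 3 libraries. The WT CT1 group has the lowest mean for 8 genes, and Rdh11 is lowest in WT at CT10.

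The average genotype differences were small. The fitted log2 KO minus WT difference averaged over times was 0.18 for Rpe65 (95% interval -0.13 to 0.48), 0.16 for Lrat (-0.19 to 0.51) and -0.24 for Rdh11 (-0.50 to 0.01). For the other 6 genes it lay between -0.12 for Rgr and 0.09 for Ttr. The widest interval among the 9 was that of Rlbp1, from -0.40 to 0.31. A difference of more than 0.51 in either direction on the log2 scale lay outside all 9 intervals. These intervals describe the libraries measured, and an adjusted p above the threshold does not show that the genotypes were equal.

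The sign of the genotype difference was shared by most of the 9 genes at a time and was not the same at every time. At CT19 and at CT22, 0 of 9 genes had a positive KO minus WT difference, with medians of log2 -0.16 and -0.20 beside -0.01 and 0.03 over all genes tested. At CT1 and at CT10, 8 of 9 were positive, with medians of log2 0.19 and 0.32 beside -0.01 and 0.09. The exceptions were Rdh11 at CT1 and Rgr at CT10. The 20 RPE markers outside the 9 genes went the same way by their medians. Of these markers 3, 6, 14 and 13 were positive at CT19, CT22, CT1 and CT10. Their medians were log2 -0.29, -0.12, 0.25 and 0.30, so the pattern was not particular to the visual cycle genes. The 9 genes varied together between libraries, so their counts are not 9 separate observations, and 0 of 9 passed in the interaction. The signs of the 9 rested on few libraries. At CT19, 7 of 9 were positive without the pooled KO library 3and5 and 4 of 9 without WT library 2. At CT22, 4 of 9 were positive without KO library 2, and 2 of 9 without the pooled KO library 1and4 or without WT library 6. At CT1, 4 of 9 were positive without the pooled KO library 4and6 and 5 of 9 without the pooled WT library 3and6. At CT10, 7 or 8 were positive whichever library was left out. With the rod marker score as a covariate the signs turned at CT22, where 8 of 9 were positive, and at CT1, where 0 of 9 were, with medians of log2 0.19 and -0.39. At CT19 that covariate gave 6 of 9 positive with a median of log2 0.03, and at CT10 8 of 9 with a median of 0.44. With the RPE marker score as a covariate 8 of 9 were positive at CT19, 3 of 9 at CT22, 3 of 9 at CT1 and 4 of 9 at CT10.

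**Figure D2:**
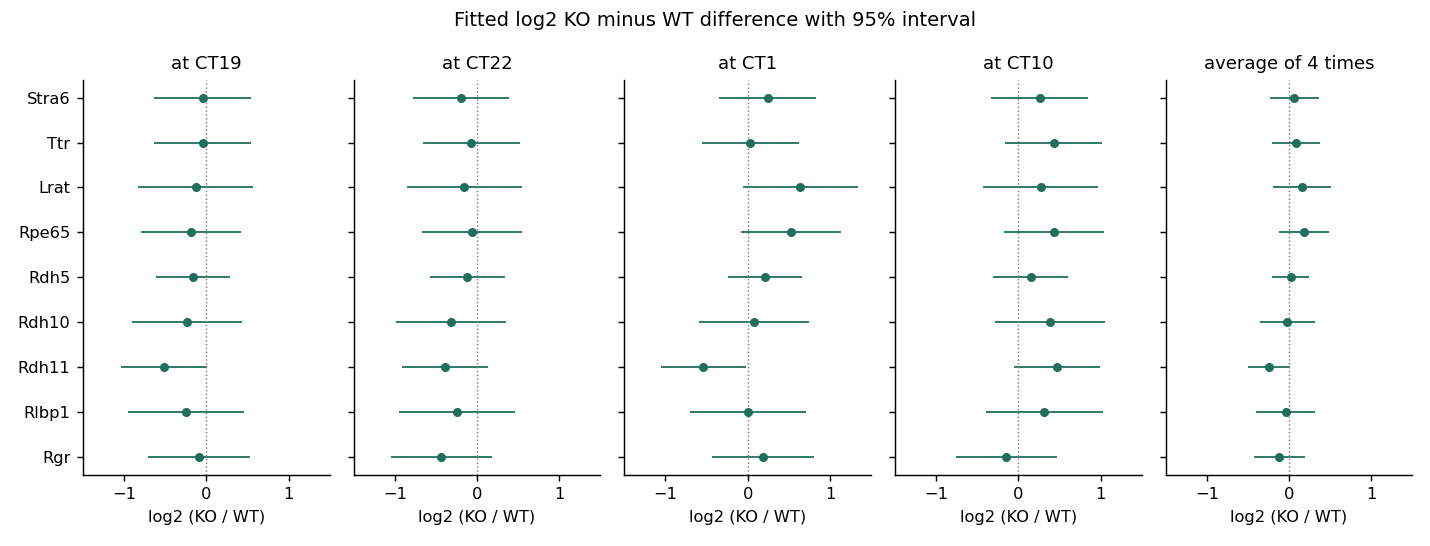
Fitted log2 KO minus WT difference of each gene (x axis) with its 95% interval, at each time and averaged over the 4 times. Points left of the dotted line at 0 at CT19 and CT22 stand beside points mostly right of it at CT1 and CT10, and 1 of the 45 intervals (Rdh11 at CT1) leaves out 0.

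Uptake of vitamin A from the blood depends on Stra6, the membrane receptor for retinol-binding protein, and on Ttr, which encodes transthyretin, a carrier of that protein and of thyroid hormone that the RPE itself makes. Stra6 (ENSMUSG00000032327, GRCm38 chromosome 9, 58063788 to 58153996, plus strand) averaged 1717 ± 709 CPM in KO and 1773 ± 414 CPM in WT at CT19 (SD, n = 3 each, as for all group means). At CT22 it averaged 1526 ± 602 CPM in KO and 1747 ± 39.6 CPM in WT. At CT1 it averaged 1491 ± 427 CPM in KO and 1261 ± 103 CPM in WT. The groups overlapped at every time, and the 2 genes that lie over Stra6 in the annotation, Ccdc33 and Gm16131, share no exon base with it. At CT10 Stra6 averaged 1594 ± 165 CPM in KO and 1331 ± 195 CPM in WT.

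Ttr (ENSMUSG00000061808, GRCm38 chromosome 18, 20665280 to 20674321, plus strand) was the most abundant of the 9 in every library. At CT10 it was at 27647, 22581 and 26096 CPM in KO libraries and at 18559, 22792 and 15287 CPM in WT libraries. The groups overlapped only in that the highest WT library lay just above the lowest KO library. The fitted difference there was log2 0.43 (SE 0.29, adjusted p 0.444). At CT22 the 3 WT libraries lay within 22699 to 23586 CPM while the 3 KO libraries spread from 16230.5 to 31373 CPM. At CT19 and CT1 the means were 22497 ± 5434 and 18091 ± 3869 CPM in KO, and 23181 ± 3772 and 17732 ± 1821 CPM in WT.

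Storage and isomerisation rest on a pair of enzymes. Lrat encodes lecithin retinol acyltransferase, which joins retinol to a fatty acid, and Rpe65 encodes the isomerohydrolase that turns the resulting ester into 11-cis-retinol. Lrat (ENSMUSG00000028003, GRCm38 chromosome 3, 82892579 to 82903973, minus strand) had the largest positive genotype difference of the 9 at any time, at CT1. It was then at 1387, 1890.0 and 845 CPM in KO libraries and at 1059, 786 and 798 CPM in WT libraries. In KO 2 libraries lay above all WT libraries and the third lay among them. The fitted difference was log2 0.64 (SE 0.34, adjusted p 0.307), and -0.14 with the rod marker score as a covariate. At CT19 Lrat averaged 1298 ± 586 CPM in KO and 1421 ± 395 CPM in WT. At CT22 it averaged 1142 ± 447 CPM in KO and 1271 ± 247 CPM in WT, and at CT10 1545 ± 501 CPM in KO and 1278 ± 332 CPM in WT, with overlap each time. The order of its groups ran down from KO at CT10 to WT at CT1, and each group overlapped the next.

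Rpe65 (ENSMUSG00000028174, GRCm38 chromosome 3, 159599175 to 159625321, plus strand) lies on the same chromosome as Lrat. At CT19 and at CT22 it overlapped between genotypes, like the other 8 genes, where 3.96% and 8.01% of all genes had every KO library above every WT library and 5.31% and 4.79% had every KO library below. At CT1 it was at 4002, 5640.2 and 3711 CPM in KO libraries and at 3299, 2809 and 3183 CPM in WT libraries. At CT10 it was at 6336, 4869 and 4802 CPM in KO libraries and at 3483, 4656 and 3743 CPM in WT libraries. At both times every KO library lay above every WT library. Groups that did not overlap with KO on top made up 10.1% of all genes tested at CT1 and 17.7% at CT10, and Rpe65 was the 1 of the 9 genes among them at each time. The fitted differences were log2 0.52 at CT1 (SE 0.30, 95% interval -0.09 to 1.13, adjusted p 0.341) and log2 0.43 at CT10 (SE 0.30, 95% interval -0.18 to 1.04, adjusted p 0.462). With the rod marker score as a covariate the difference was log2 -0.09 at CT1 and 0.56 at CT10. Over all alternatives its adjusted p ran from 0.146 to 0.968 at CT1 and from 0.158 to 0.819 at CT10.

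At CT19 Rpe65 was at 7229, 3004 and 4469.6 CPM in KO libraries and at 4095, 6719.9 and 5931 CPM in WT libraries. At CT22 it was at 4269.7, 3923 and 6764 CPM in KO libraries and at 4862, 4459 and 6265 CPM in WT libraries. The highest and the lowest library at CT19 were both KO. Within WT the fitted levels covered a log2 range of 0.85 over the 4 times, highest at CT19 and lowest at CT1 (unadjusted p 0.035, adjusted p 0.224), and the step from CT22 to CT1 was log2 -0.75 (SE 0.30, adjusted p 0.244). Within KO the range was 0.26 (adjusted p 0.999). The interaction range was 0.71 (adjusted p 0.523), so a smaller daily range in KO was not shown. In the order of its 8 groups, WT at CT1 was the only one whose libraries did not overlap those of the group above it, WT at CT10.

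The promoter windows below carry short motifs of factors known from clock and RPE gene control, and are shown for the 4 genes in which any was found. Windows are the 250 bases before a RefSeq start on GRCm38.p6, written 5′ to 3′ on the gene's strand, with motif letters in capitals. The search covered 11 RefSeq windows for 7 of the 9 genes, and the 4 genes shown are among these 7. Rdh10 had no window and Ttr was left out of the search, so motifs in these genes were not tested. The motifs searched on both strands were CACGTG (the E-box bound by CLOCK and BMAL1, in 6.02% of 32851 mouse windows), TTATGTAA (the D-box, 0.819%), TAATCC (the core bound by OTX2 and CRX, 6.25%), CATGTG (bound by MITF family factors, 12.3%) and AGGTCA (bound by nuclear receptors, 14%).
Rpe65 (chr3:159598931-159599180, plus strand): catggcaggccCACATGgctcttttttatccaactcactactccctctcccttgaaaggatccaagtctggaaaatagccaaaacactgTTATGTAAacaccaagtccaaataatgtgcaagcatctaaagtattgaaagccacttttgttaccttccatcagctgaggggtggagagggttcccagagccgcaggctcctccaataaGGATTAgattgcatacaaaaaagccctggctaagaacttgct
Rdh11 (chr12:79190962-79191211, minus strand): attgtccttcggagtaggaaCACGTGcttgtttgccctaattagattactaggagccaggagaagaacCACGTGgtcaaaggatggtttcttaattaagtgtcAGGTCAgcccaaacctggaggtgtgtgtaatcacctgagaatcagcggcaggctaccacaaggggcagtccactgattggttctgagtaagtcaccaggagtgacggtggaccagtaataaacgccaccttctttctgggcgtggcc
Rdh11 (chr12:79191856-79192105, minus strand): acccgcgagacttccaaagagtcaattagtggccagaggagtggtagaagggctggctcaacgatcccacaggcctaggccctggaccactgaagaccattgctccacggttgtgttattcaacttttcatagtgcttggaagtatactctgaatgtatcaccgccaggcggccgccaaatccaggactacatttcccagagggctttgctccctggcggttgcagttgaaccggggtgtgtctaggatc
Rlbp1 (chr7:79387028-79387277, minus strand): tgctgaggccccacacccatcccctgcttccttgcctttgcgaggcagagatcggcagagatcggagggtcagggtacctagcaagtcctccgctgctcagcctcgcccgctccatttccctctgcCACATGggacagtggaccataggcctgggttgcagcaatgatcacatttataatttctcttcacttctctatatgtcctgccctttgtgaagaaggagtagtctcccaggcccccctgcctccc
Rgr (chr14:37049015-37049264, minus strand): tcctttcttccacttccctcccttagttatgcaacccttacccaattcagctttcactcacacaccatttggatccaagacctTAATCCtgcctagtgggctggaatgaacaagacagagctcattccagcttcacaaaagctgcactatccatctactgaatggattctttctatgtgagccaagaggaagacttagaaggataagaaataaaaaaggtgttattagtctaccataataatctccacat
The Rpe65 window holds the D-box letters 161 bases before the start, GGATTA, the reverse complement of TAATCC, 42 bases before it, and CACATG, the reverse complement of CATGTG, 239 bases before it. Of the 2 Rdh11 windows, the first has CACGTG 230 and 182 bases before its start and AGGTCA at 147 bases. The second has none of the 5 motifs. Both windows lie within the annotated Rdh11 gene, whose 5′ end is at 79192293, and the first is the further from that end. Rlbp1 has CACATG near the middle of its window and Rgr has TAATCC at 167 bases. Letters in a window are a description of the sequence and not a measure of binding.

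Oxidation of retinols to retinals is the work of short-chain dehydrogenases. Rdh5 encodes the 11-cis-retinol dehydrogenase of the RPE, Rdh10 a retinol dehydrogenase also needed for retinoic acid synthesis in the embryo, and Rdh11 an NADPH-dependent retinal reductase and retinol dehydrogenase. Rdh5 (ENSMUSG00000025350, GRCm38 chromosome 10, 128913593 to 128922888, minus strand) shares 720 exon bases with Bloc1s1 on the same strand, so its counts are uncertain. It had the smallest within-group SD of the 9, at 0.21 on the log2 scale, pooled over the 8 groups. Its group means ran from 2341 to 2684 CPM in KO and from 2026 to 2860.1 CPM in WT. At CT10 the WT libraries lay within 2401 to 2438 CPM, inside the KO span of 2293 to 2949 CPM.

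Rdh10 (ENSMUSG00000025921, GRCm38 chromosome 1, 16105774 to 16133734, plus strand) had the largest fold of the 9 between its lowest and highest library, at 3.10. Its within-group SD was 0.43 on the log2 scale, below 0.46 for Lrat and 0.44 for Rlbp1. At CT19 it was at 2681, 1081 and 1398 CPM in KO libraries and at 1269, 2505 and 2282 CPM in WT libraries. The highest and the lowest of these 6 were KO libraries. At CT10 it averaged 1750.3 ± 400.5 CPM in KO and 1343 ± 215 CPM in WT, a fitted difference of log2 0.38 (SE 0.32, adjusted p 0.563). Its differences at the other times lay between log2 -0.31 and 0.08.

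Rdh11 (ENSMUSG00000066441, GRCm38 chromosome 12, 79174337 to 79192293, minus strand) was the 1 of the 9 genes whose lowest group mean was not that of WT at CT1 but of WT at CT10. At CT1 it was at 120.03, 119.4 and 79.4 CPM in KO libraries and at 176, 136 and 152 CPM in WT libraries. At CT10 it was at 152, 112.99 and 121.9 CPM in KO libraries and at 88.6, 113.1 and 78.5 CPM in WT libraries. At CT1 every KO library lay below every WT library, as in 14.6% of all genes tested and in no other of the 9, and at CT10 the groups overlapped. The fitted differences were log2 -0.54 at CT1 (SE 0.25, 95% interval -1.06 to -0.02, adjusted p 0.237) and log2 0.47 at CT10 (SE 0.25, 95% interval -0.05 to 0.99, adjusted p 0.333).

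At CT19 Rdh11 was at 192, 86.4 and 121.7 CPM in KO libraries and at 144, 229 and 198 CPM in WT libraries. At CT22 it was at 106, 107 and 182 CPM in KO libraries and at 161, 183 and 175 CPM in WT libraries. At both times 2 KO libraries lay below all WT libraries and 1 lay among them. The fitted differences were log2 -0.51 at CT19 and -0.39 at CT22 (SE 0.25 each, adjusted p 1 and 0.552).

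Over the day the WT libraries of Rdh11 were highest at CT19 and lowest at CT10, a log2 range of 1.03 (unadjusted p 0.0031, adjusted p 0.0891). The step from CT1 to CT10 within WT was log2 -0.73 (SE 0.25, adjusted p 0.0955, where 3.48% of all genes passed). The difference between CT19 and CT10 within WT was log2 1.03 (SE 0.25, adjusted p 0.0527, where 0.779% of all genes passed). Within KO the range was 0.33 (adjusted p 0.944), and the interaction range was 1.01 (unadjusted p 0.028, adjusted p 0.164). The other 8 genes had WT ranges of 0.39 to 0.85. DESeq2 put the WT range of Rdh11 at 0.93 with an adjusted p of 0.0258, and over all alternatives that adjusted p ran from 0.000907 to 0.315. With the RPE marker score as a covariate the genotype difference at CT1 was log2 -0.81 (adjusted p 0.0102). Over all alternatives it was negative, from log2 -0.99 to -0.35, with adjusted p of 0.0102 to 0.536. Over the same alternatives 15 to 2159 genes passed over time within WT, and 3 to 1556 between genotypes at CT1. The share of all genes passing in each single setting is not given here.

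Binding and light-driven isomerisation are represented by Rlbp1, which encodes the 11-cis-retinal carrier CRALBP of RPE and Müller glia, and by Rgr, which encodes an opsin of the same cells that turns all-trans-retinal into the 11-cis form in light. Rlbp1 (ENSMUSG00000039194, minus strand of GRCm38 chromosome 7, 79374870 to 79387048) at CT19 was at 4689, 1549 and 2188 CPM in KO libraries and at 2882, 4441 and 2690.3 CPM in WT libraries. At CT22 it was at 1887, 1982 and 4283 CPM in KO libraries and at 3367, 3183 and 3083 CPM in WT libraries. At CT22 the WT libraries lay close together and the KO libraries lay on both sides of them. At CT1 the means were nearly equal, 2438 ± 659.9 CPM in KO and 2435 ± 367 CPM in WT. At CT10 they were 3149.6 ± 799 CPM in KO and 2529 ± 166 CPM in WT, a fitted difference of log2 0.32 (SE 0.34, adjusted p 0.665).

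Rgr (ENSMUSG00000021804, minus strand of GRCm38 chromosome 14, 37034909 to 37048964) at CT22 was at 11784, 8990.4 and 16791 CPM in KO libraries and at 17688, 14819 and 18219 CPM in WT libraries. Here 2 KO libraries lay below all WT libraries and 1 lay among them. The fitted difference was log2 -0.43 (SE 0.30, adjusted p 0.591). At CT10 Rgr averaged 14341 ± 3347 CPM in KO and 15858 ± 1169 CPM in WT, the only negative difference among the 9 at that time (log2 -0.14, adjusted p 0.844). Its means at CT19 and CT1 were 15235 ± 3662 and 13439.5 ± 3777 CPM in KO, and 16194 ± 4889.7 and 11816 ± 1528 CPM in WT. Müller glia also make Rlbp1 and Rgr mRNA. The summed level of 8 Müller glia markers ran from 910.5 to 1929 CPM in KO libraries and from 911 to 1979 CPM in WT libraries. Most of that sum was Glul, at a mean of 1394 CPM, while the other 7 markers averaged 2.33 to 9.41 CPM. The median KO minus WT difference of the 8 was log2 -1.26 at CT1 (1 of 8 positive) and 0.75 at CT10 (6 of 8 positive), 0 of 8 passed at either time (4 and 1 at an unadjusted p under 0.05), and their part in the values of Rlbp1 and Rgr was not tested.

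WT at CT1 held the lowest group mean for 8 of the 9 genes. The mean score of the 20 RPE markers was also lowest in that group, at 8.16. From CT22 to CT1 within WT 0 of 9 steps were positive, with a median of log2 -0.46 beside 0.02 over all genes tested, and 0 of 9 passed, beside 0.281% of all genes. The steps ran from log2 -0.16 for Rdh11 to -0.75 for Rpe65. Within KO the same step had a median of log2 -0.09, with 2 of 9 positive and 0 of 9 passing, beside 0% of all genes. From CT1 to CT10 the steps were positive for 8 of 9 genes within WT, with a median of log2 0.10 beside -0.05 over all genes, and for 9 of 9 within KO, with a median of 0.26 beside 0.05. Of the 20 RPE markers, 5 were positive from CT22 to CT1 within WT (median log2 -0.38) and 13 within KO (0.05). From CT1 to CT10, 12 of these 20 were positive within WT (median log2 0.16) and 15 within KO (0.08). Within WT the rod markers stepped the other way, with 19 of 19 positive from CT22 to CT1 (median log2 1.27) and 0 of 19 from CT1 to CT10 (-1.01). Within KO they had the sign of the 9 genes' median at both steps, with 0 of 19 positive from CT22 to CT1 (median log2 -1.15) and 18 of 19 from CT1 to CT10 (0.69). The summed rod markers stood at 27946 to 33379.6 CPM in KO and at 63824 to 89921 CPM in WT at CT1, and at 32609 to 104805 CPM in KO and 19330.2 to 42525 CPM in WT at CT22. With the rod marker score as a covariate 7 of 9 steps from CT22 to CT1 within WT were positive (median log2 0.22) and 1 of 9 from CT1 to CT10 (-0.24), while within KO 0 of 9 (-0.50) and 9 of 9 (0.50) were. With the RPE marker score 1 of 9 and 5 of 9 were positive within WT, and 1 of 9 and 7 of 9 within KO. Since CPM are shares, more rod RNA, fewer RPE cells in the capture and less RNA of these genes per RPE cell cannot be told apart in bulk samples.

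The 9 genes moved together from library to library. Over the 24 libraries the 36 pairs had Pearson correlations of log2(CPM + 1) from 0.47 to 0.91, with a median of 0.76, and a median Spearman correlation of 0.77. With each group's mean taken off, the median was 0.85. All pairs among 11567 genes with a mean of at least 5 CPM had a median of 0.02. These correlations are a description: the points share libraries, depth and the mix of captured cells. Rdh10 had the highest median correlation with the other 8 (0.85) and Rdh11 the lowest (0.63), and with group means taken off Rdh11 stood at 0.89. The mean log2 score of 20 RPE markers correlated with the 9 genes at 0.66 to 0.86, and the rod marker score at -0.64 to -0.12.

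Single libraries held the extreme of their group for most genes at once. At CT19 KO library 2 was the highest of its group for 8 of 9 genes and the pooled library 3and5 the lowest for 9 of 9. At CT22 KO library 3 was the highest of its group for 9 of 9. At CT1 KO library 5 was the lowest of its group for 9 of 9. In WT at CT1, library 2 was the highest for 9 of 9 and the pooled library 3and6 the lowest for 9 of 9. The KO library 3and5 at CT19 had summed rod markers of 90149 CPM, against 50235 and 56689 CPM in the other KO libraries of that time. WT library 2 at CT1, where the 9 genes were highest in their group, also had the highest summed rod markers of that group, 89921 CPM against 70786 and 63824 CPM. The median within-group SD of the 9 genes was 0.35 on the log2 scale, and 73.1% of genes at 5 CPM or more had a smaller one.

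**Figure D3:**
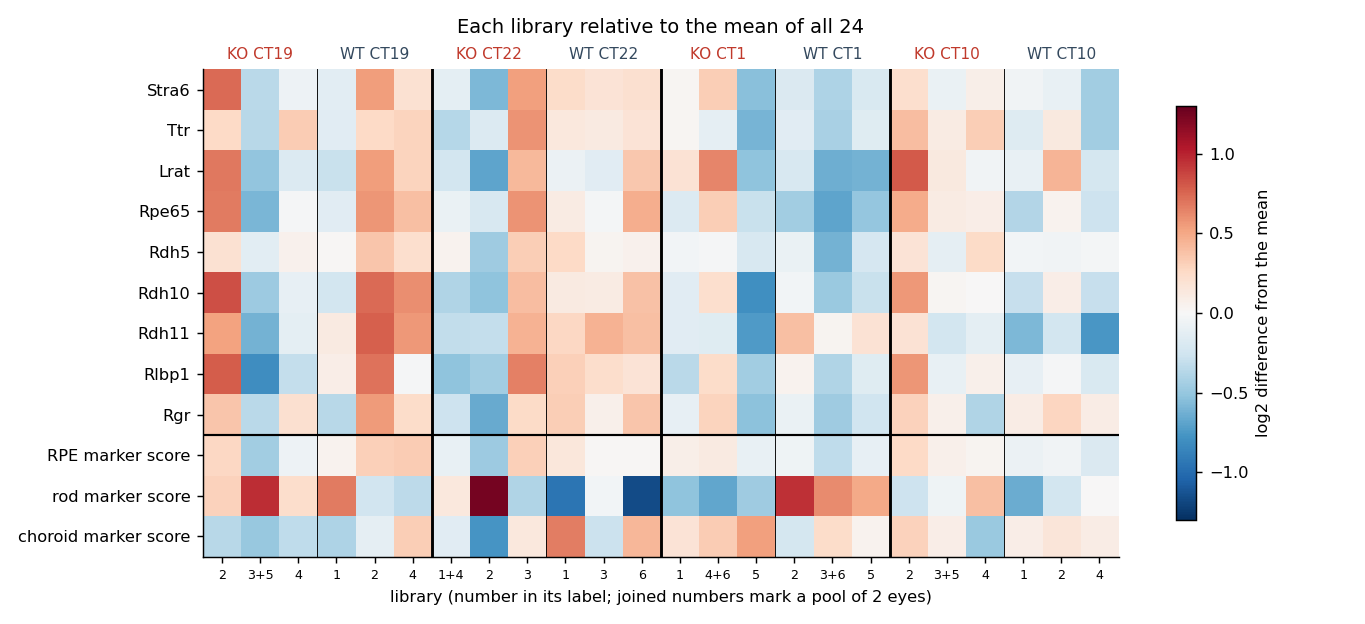
Log2 level of each gene and mean log2 score of RPE, rod and choroid markers (rows) in each of the 24 libraries (columns, KO left of WT at each time), as the difference from that row's mean over all libraries. Columns are mostly one colour over the 9 genes, such as red in KO library 2 and blue in KO library 3+5 at CT19, and the rod row is red in all 3 WT libraries at CT1.

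Genes outside the 9 followed single members closely. For each member the 3 tested genes at 5 CPM or more with the highest Pearson correlation of log2(CPM + 1) over the 24 libraries are named. Rpe65 and Lrat had Tshr, the thyrotropin receptor gene, in first place (r 0.93 and 0.94), followed by Sgms1 and Ttl for Rpe65 and by Thsd7a and Tmem56 for Lrat. Rdh10 went with the monocarboxylate transporter genes Slc16a9 and Slc16a1 and with Clic6 (r 0.96 each). Stra6 went with Plxnb2, Timp2 and Fads3 (0.95 each), and Ttr with 1810058I24Rik, Bdh2 and Spg21 (0.93 to 0.95). Rdh11 went with Fam189a2 (0.95), Pgrmc2 and BC004004 (0.93 each). Rdh5 went with the carbonic anhydrase gene Car14 (0.88), Scamp3 and St3gal4 (0.87 each), Rlbp1 with Bsdc1, Lrpap1 and Ctsc (0.90 to 0.91), and Rgr with Csf1r, Hid1 and Ano10 (0.87 each). No member was among the 3 nearest genes of another member.

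Other genes of retinoid handling were read from lists. Of 22 retinoid partners in RPE and uptake, 17 were tested and 0 passed in the genotype average, over time within WT or over time within KO (2, 4 and 1 at an unadjusted p under 0.05), while 1 passed in the interaction. That gene was Adipor1, an adiponectin receptor gene whose loss in mice is known to harm photoreceptors. It was at 488, 454 and 390.5 CPM in KO libraries and at 979, 738 and 687 CPM in WT libraries at CT1. Every KO library then lay below every WT library, as in 14.6% of all genes tested. At CT22 it was at 556, 1179 and 603 CPM in KO libraries and at 427, 557 and 416 CPM in WT libraries, with overlap. The interaction range was log2 1.59 (adjusted p 0.0358).

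Of the 4 genes of retinoid steps in photoreceptors, 4 were tested. Over time within WT 2 passed, beside 0.947% of all genes, and the same 2 passed in the interaction, beside 4.62%. Rdh12, a photoreceptor retinal reductase gene, was at 40.7, 50.9 and 64.0 CPM in KO libraries and at 220.4, 117.6 and 124.4 CPM in WT libraries at CT1. At CT22 it was at 67.0, 149 and 50.5 CPM in KO libraries and at 27.6, 48.3 and 22.5 CPM in WT libraries. The groups did not overlap at either time, with KO below at CT1, as in 14.6% of all genes, and above at CT22, as in 8.01%. Its range was log2 2.23 over time within WT (adjusted p 0.0282) and 3.01 in the interaction (adjusted p 0.0248). Rbp3, which encodes the retinoid carrier between photoreceptors and RPE, was at 673, 1081 and 1343 CPM in KO libraries and at 3528, 2078 and 1622 CPM in WT libraries at CT1. These did not overlap, and its CT22 libraries came close, with the lowest KO library at 606.9 CPM and the highest WT library at 605.9 CPM. Rbp3 had ranges of log2 2.09 within WT (adjusted p 0.044) and 2.40 in the interaction (adjusted p 0.0368). Leaving out 1 library ended the call over time within WT in 10 of 24 cases for Rdh12 and in 18 of 24 for Rbp3. Over all alternatives the adjusted p over time within WT ran from 1.1e-23 to 0.466 for Rdh12. For Rbp3 it ran from 2.7e-10 to 0.687. Abca4, the retinoid flippase gene of outer segments, and Rdh8 did not pass, with interaction ranges of log2 0.45 and 2.26 (adjusted p 0.713 and 0.0676).

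Of 14 genes of retinoic acid synthesis and clearance, 13 were tested and 0 passed in the genotype average, over time in WT, over time in KO or in the interaction (1, 4, 2 and 2 at an unadjusted p under 0.05). The 2 with the highest mean CPM were the retinoid X receptor genes Rxra and Rxrb. Rxra averaged 71.2 ± 10.4 CPM in KO and 46.5 ± 4.31 CPM in WT at CT10, a log2 difference of 0.62 (SE 0.15, adjusted p 0.0911), and its range within WT was log2 0.67 (adjusted p 0.0581). Rxrb had a range of 0.12 within WT (adjusted p 0.963). Of 9 transcription factors of RPE genes, 9 were tested and 2 passed in the interaction, Crx (log2 range 2.41, adjusted p 0.0325) and Rax (2.48, adjusted p 0.0248), homeobox genes used in photoreceptors and early eye development, and 0 passed in the other 3 tests. All 5 of these calls, in a test that 4.62% of all genes passed, had the highest KO minus WT difference at CT22 and the lowest at CT1, as the rod markers did. Of 19 rod markers, 14 passed in the interaction. With the rod marker score as a covariate the 5 genes had adjusted p of 0.301 to 0.606 in the interaction, and without the 5 pooled libraries 0.0678 to 0.1696. Leaving out any 1 of the 3 KO libraries of CT1, KO library 2 or 4 of CT10, WT library 1 of CT10, WT library 1 of CT22, or WT library 2 or 3and6 of CT1 also ended all 5 calls, with the highest adjusted p of a single omission at 0.141 for Adipor1. Other alternatives gave lower values, and the lowest adjusted p of the 5 genes lay between 4.0e-21 for Rdh12 and 0.00071 for Adipor1.

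**Figure D4:**
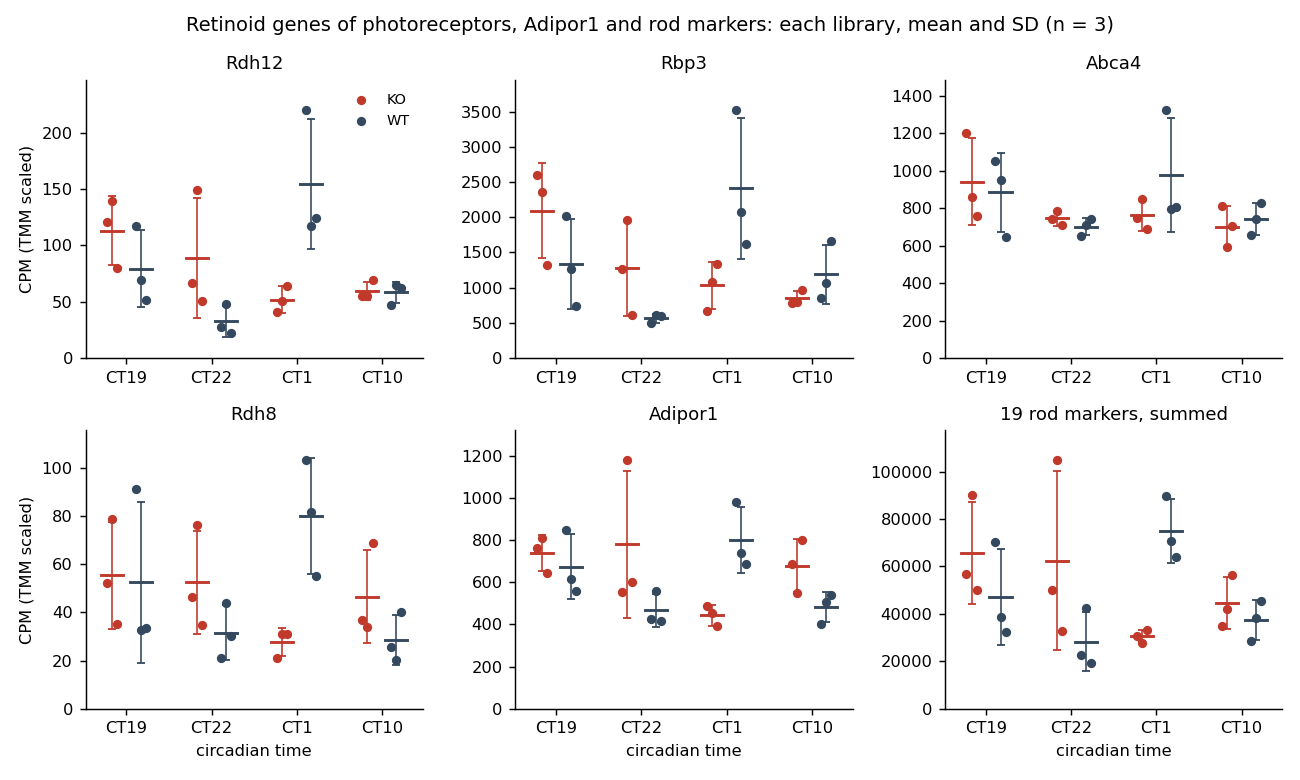
Level (y axis, TMM-scaled CPM, from 0) of the 4 photoreceptor retinoid genes, Adipor1 and the sum of 19 rod markers at 4 circadian times (x axis), KO in red left of WT in dark blue. Points are libraries, thick bars the mean and whiskers the SD of 3 libraries. At CT1 the 3 KO libraries lie below the 3 WT libraries for Rdh12, Rbp3, Rdh8, Adipor1 and the rod sum.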

How the data were processed

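RPE mRNA libraries were grouped by genotype and circadian time from their labels. The deposited table gives whole-number counts of reads for each gene with no normalization by the authors, and 0 of its columns lacked a sample. The submitters' processing notes name build GRCm38.p6 and the tools HTSeq 0.11, HISAT2 2.1.0, Trimmomatic 0.32 and Cufflinks. The order of these tools, the annotation release and any strand setting are not given in the sources used here. Symbols came from a reference list of gene names, and from GENCODE M21 where that list had none. GENCODE M21 held 54079 of the 54232 identifiers.

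Counts were filtered with filterByExpr (minimum count 10), scaled by TMM and fitted with edgeR 4.0.16 in R 4.3.3 (glmQLFit with robust dispersions) to 8 group means, which left 16 residual degrees of freedom. Adjusted p are Benjamini-Hochberg values over all genes. Time and interaction tests are summarised by a log2 range, from the time with the lowest fit to that with the highest. Steps between neighbouring times were tested in the same fit. Marker scores are mean log2(CPM + 1) with a pseudocount of 1. The edgeR fit was tested on simulated data. Levels per kilobase use GENCODE exon lengths, and promoter windows are from RefSeq.

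The 9 genes, the lists and the tests were chosen with earlier results of these data known. Named by rule were the 9 genes, Per1, Per2, each list gene passing in the genotype average, over time within WT or KO or in the interaction, otherwise the 2 with the highest mean CPM, and for each of the 9 the 3 genes most correlated with it. Libraries of a group were compared in pairs and none was a repeat of another (chi-square per degree of freedom at least 30.7). The alternatives were RLE size factors, no filter, a mean of at least 5 CPM, DESeq2 1.42.0, each library left out, the pooled libraries left out, a replicate block, marker scores as covariates, and only the groups compared.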

Additional observations from a re-analysis of the deposited data

Results flagged for a closer look

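The KO minus WT difference varied with time beyond the spread between libraries, by the edgeR interaction test, for 5 genes of the retinoid and transcription factor lists and for none of the 9 visual cycle genes, beside 4.62% of all genes tested. The log2 range of that difference over the 4 times was 3.01 for Rdh12, 2.48 for Rax, 2.41 for Crx, 2.40 for Rbp3 and 1.59 for Adipor1. In all 5 the difference was highest at CT22 and lowest at CT1, the order of the summed rod markers in the same libraries. At CT1, the time of the lowest difference in the test that called them, every KO library lay below every WT library for each of the 5, as for 14.6% of all genes tested. With the rod marker score as a covariate, with a replicate block and without the 5 pooled libraries none of the 5 passed, and leaving out 1 library ended 9 of 24 calls for Rax, 10 for Rdh12, 13 each for Crx and Adipor1 and 16 for Rbp3. Other alternatives gave lower values. Over all of them the adjusted p of the interaction ran from 4.0e-21 to 0.458 for Rdh12 and from 3.7e-16 to 0.430 for Rax. It ran from 2.8e-09 to 0.504 for Crx, 1.1e-08 to 0.582 for Rbp3 and 0.00071 to 0.606 for Adipor1.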

How the results depend on the processing

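The count of visual cycle genes passing was 0 in all 16 comparisons and stayed 0 under RLE size factors, under a mean of at least 5 CPM, without the 5 pooled libraries and with a replicate block. It moved to 1, always Rdh11, in these cases: without a filter over time within WT, in the interaction, for CT10 minus CT1 within WT and for CT19 minus CT10 within WT; with the rod score over time within WT and for CT19 minus CT10 within WT; with the choroid score for CT19 minus CT10 within WT; with the RPE score for KO minus WT at CT1, over time within WT, in the interaction and for CT10 minus CT1 within WT; with only the groups compared over time within WT, for CT10 minus CT1 and for CT19 minus CT10 within WT; and with DESeq2 over time within WT and for CT19 minus CT10 within WT. With 1 library left out it was 0 to 1 for CT19 minus CT10 within WT, at 1 without KO CT22 library 1and4, KO CT22 library 2, KO CT19 library 2 or KO CT1 library 5, and 0 in the other 15 comparisons. The cause was not tested. The share of all genes passing in each of these settings is not given here, so the calls of Rdh11 have no background. The adjusted p of Rdh11 for CT19 minus CT10 within WT ran from 0.000525 to 0.235. Counts over all genes moved more: 937 genes passed in the interaction, against 20 to 1688 with 1 library left out and 3 to 2686 otherwise, 192 over time within WT, against 15 to 2159 in all, and 0 over time within KO, against 0 to 1253. Between genotypes 76 genes passed in the average (36 to 378 over all alternatives, as for the ranges that follow unless named), 14 at CT19 (2 to 39 with a filter, and without one more than the 108 that passed at CT1), 46 at CT22 (2 to 808), 108 at CT1 (3 to 1556) and 7 at CT10 (1 to 999). Within WT 57 passed for CT1 minus CT22 (0 to 1007), 706 for CT10 minus CT1 (9 to 1797) and 158 for CT19 minus CT10 (12 to 1191). With the replicate block 3 genes passed in the interaction. With group means taken off, 30 pairs of libraries with the same number had correlations of -0.21 to 0.42 (median 0.01, with 7 over 0.1). Of 20 libraries with such a partner, 2 correlated best with their own number. The labels do not say what the numbers mean, so whether they pair the libraries cannot be told. With the filter at a mean of 5 CPM the TMM factors moved the median difference of all genes by log2 -0.15 for KO minus WT at CT10 and -0.17 for CT19 minus CT10 within WT, and at CT10 7 of the 9 genes were then positive. Leaving out a library also refits the filter and the factors.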
